A study of Mus musculus with 2 samples.

Results

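Splicing events in 7 genes for chromatin complexes and histone modifiers are described, in mouse embryonic fibroblasts that lack SRSF10 and in wild-type fibroblasts. The genes are Nsd2 (written Whsc1 in the table), Msl1, Taf6l, Phc1, Arid1a, Adnp and Hmgxb4. They were chosen by name and hold 7 of the 100 events, 1 event each, among 96 genes. SRSF10 is an SR protein that regulates splicing, and fibroblasts grown from embryos are commonly used to study adipocyte formation, which the title of the series names. One library came from SRSF10-deficient (KO) cells and 1 from wild-type (WT) cells, and no allele, clone, age or strain is given in the labels used here. Every event in the table differs between these same libraries by at least 20 points of inclusion, so a difference in the 7 genes was given with their listing. A test on these reads is no separate support for it, and there is no replicate check.

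Chromatin is altered by enzymes that write marks on histone tails and by machines that slide or evict nucleosomes, and most of them act as complexes of several subunits. Alternative exons in such genes can add or remove a stretch of protein, move a transcript towards decay, or change only the leader before the start codon. The exons described here fell into all of these kinds. In Phc1, Msl1 and Arid1a the alternative part was coding and a multiple of 3 nucleotides. In Nsd2 and Adnp it lay in the 5′ untranslated region. In Hmgxb4 it carried a stop codon, and the exon filed under Taf6l matched an exon of the neighbouring gene Tmem179b.

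Reads over all listed events totalled 52735 in the KO library and 56927 in the WT library. The table gives for each event the reads that fit only the isoform with the alternative part, only the isoform without it, both, or neither. Reads that fit a single isoform numbered 11 to 55 per event of the 7 genes in the KO library and 15 to 69 in the WT library, with medians of 31.0 and 46.0. None of the 11 fibroblast markers or 10 markers of other cell types looked for has a listed event, so the cell type rests on the labels. No listed event lies in Srsf10, so the genotype rests on them as well.

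Inclusion was lower in KO cells for 5 of the 7 genes, Nsd2, Phc1, Msl1, Taf6l and Hmgxb4, and higher for 2, Adnp and Arid1a. Over all 100 events it was lower in 45 and higher in 55. The median size of the difference was 35.0 points in the 7 genes and 33.5 points over all events. Fisher's exact test on reads that fit a single isoform called 7 of the 7 events, beside 86.0% of all listed events. An event was called at a Benjamini-Hochberg adjusted p under 0.05 over the 100 events, with a difference of at least 10 points in the deposited inclusion and the same sign in these reads. The count fell to 4 of 7 with inclusion reads divided by 2, beside 69 of all 100 events. With Bonferroni adjustment it fell to 1 of 7, beside 28 of all events. A Bayes factor of at least 100 in the authors' deposited table was met by 2 of 7, beside 37 of all events. The 5 lower events stand beside 37.0% of all events called lower, and the 2 higher ones beside 49.0% called higher. The deposited intervals of both libraries did not overlap in 6 of the 7 genes, against 83.0% of all events, and the exception was Hmgxb4.

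**Figure D1:**
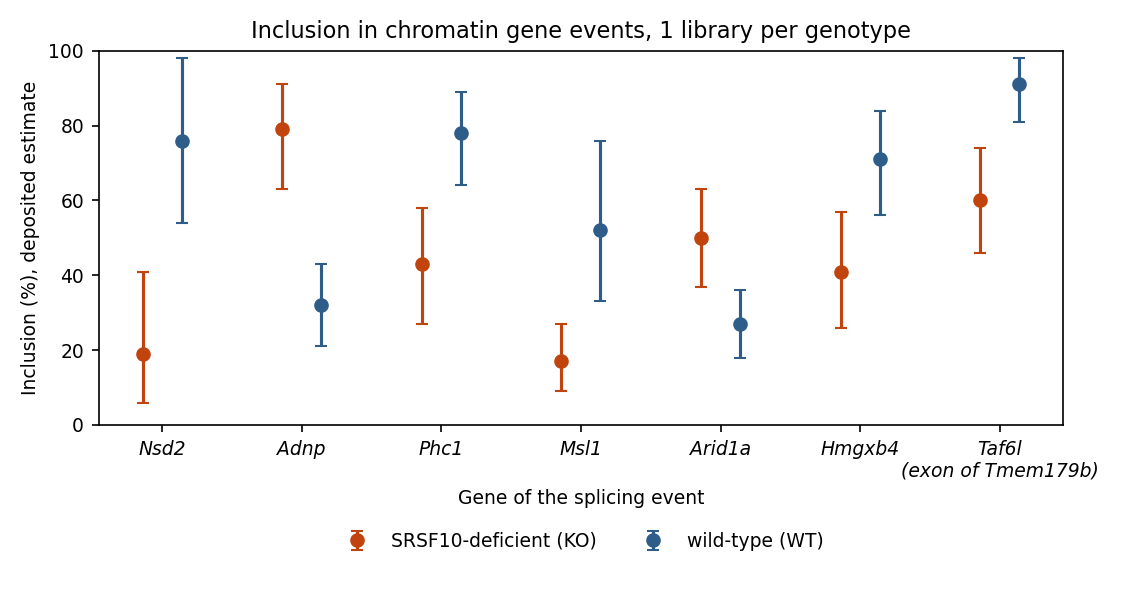
Deposited inclusion in percent (y axis) for the event of each gene (x axis), with the KO library left of the WT library and bars for the deposited interval. KO lies below WT in Nsd2, Phc1, Msl1, Hmgxb4 and Taf6l and above it in Adnp and Arid1a, and the bars overlap in Hmgxb4, at 26% to 57% in KO and 56% to 84% in WT.

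Nsd2 encodes a methyltransferase that places the dimethyl mark on lysine 36 of histone H3. Its cassette exon had the largest difference of the 7 genes, with an inclusion of 19% in KO cells (deposited interval 6% to 41%) against 76% in WT cells (54% to 98%). Only 3 reads fitted inclusion alone and 8 exclusion alone in the KO library, against 14 and 1 in the WT library. The exon was thus present in a minority of the single-isoform reads in KO cells and in nearly all of them in WT cells. The share of inclusion among these reads was 27.3% in KO cells (exact 95% interval 6.02% to 61.0%) and 93.3% in WT cells (68.1% to 99.8%), a difference of -66.1 points (Fisher's exact test, adjusted p = 0.00219). With 11 and 15 such reads it rested on the fewest reads of the 7 genes in both libraries.

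The Nsd2 exon is 70 nucleotides long (mm9 chromosome 5, 34164308 to 34164377, plus strand) and lies 781 nucleotides after the first exon and 21383 before the next one. It matched exon 2 of 2 annotated Nsd2 transcripts by its own length and those of both introns. The start codon lies in the following exon, so the exon belongs to the 5′ untranslated region. The full-length transcript with the exon, of 1366 codons, and the annotated transcript that skips it start at the same coding base. The skipping transcript has 3 exons and 225 codons and is annotated with its coding end not found, so the rest of its coding sequence cannot be compared. The alternative exon itself holds 0 coding nucleotides.

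Msl1 encodes the scaffold of the male-specific lethal complex, which acetylates lysine 16 of histone H4 through the acetyltransferase KAT8. Inclusion of its cassette exon was 17% in KO cells (9% to 27%) against 52% in WT cells (33% to 76%), a difference of -35 points. Inclusion alone was fitted by 14 reads and exclusion alone by 6 in the KO library, against 25 and 1 in the WT library. Exclusion reads were thus few in both libraries, and inclusion made up 70.0% of these reads in KO cells (45.7% to 88.1%) against 96.2% in WT cells (80.4% to 99.9%). Of the 7 genes, Msl1 had the highest adjusted p (Fisher's exact test, adjusted p = 0.0392). A cassette exon is seen by 2 junctions, and once its inclusion reads were divided by 2 for that, the call was lost (Fisher's exact test, adjusted p = 0.0891).

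The Msl1 exon has 48 nucleotides (mm9 chromosome 11, 98663582 to 98663629, plus strand), or 16 codons. It is exon 4 of 9 in a transcript of 616 codons, and is skipped in one of 600 codons that shares its first coding base. Both annotated forms thus encode proteins that differ by this stretch. The 3 junctions that separate the forms are shown as the bases a read must cross, taken from GENCODE M21 transcripts (GRCm38) and written 5′ to 3′, with the alternative exon in capitals.
Msl1 into the exon: aggagactgtagcaaGGTGTCTGATGCCAT
Msl1 out of the exon: CTTCAGTCTTGGCTGttccttcttggaggg
Msl1 skipping the exon: aggagactgtagcaattccttcttggaggg

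Phc1 encodes a polyhomeotic subunit of Polycomb repressive complex 1, a complex that compacts chromatin and places ubiquitin on histone H2A. Inclusion was 43% in KO cells (27% to 58%) against 78% in WT cells (64% to 89%). The KO library had 18 reads for inclusion alone and 12 for exclusion alone, and the WT library 40 and 6. Skipping was therefore read more often in KO cells, although fewer reads fitted a single isoform there. The inclusion share was 60.0% in KO cells (40.6% to 77.3%) and 87.0% in WT cells (73.7% to 95.1%), a difference of -27.0 points (Fisher's exact test, adjusted p = 0.0170).

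The exon of Phc1 is 156 nucleotides long (mm9 chromosome 6, 122282540 to 122282695, minus strand), or 52 codons. It matched 6 annotated transcripts, coding in 4 of them, in the 3′ untranslated region of 1 that is annotated for nonsense-mediated decay, and in 1 with no annotated coding sequence. A transcript of 1010 codons includes it as exon 5 of 14, and one of 958 codons skips it. Its junctions, from the same source and again with the exon in capitals, show where both forms part.
Phc1 into the exon: cagatgtatctgcggCCACAGCTGGGCAAC
Phc1 out of the exon: GCAGATGCAGATCAGgtgcagaacttggca
Phc1 skipping the exon: cagatgtatctgcgggtgcagaacttggca

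Taf6l encodes a histone-fold subunit of the SAGA acetyltransferase complex. The event filed under it had an inclusion of 60% in KO cells (46% to 74%) against 91% in WT cells (81% to 98%). Reads for inclusion alone numbered 35 and reads for exclusion alone 13 in the KO library, against 56 and 2 in the WT library. Inclusion predominated in both libraries, at 72.9% of these reads in KO cells (58.2% to 84.7%) and 96.6% in WT cells (88.1% to 99.6%). The difference was -23.6 points (Fisher's exact test, adjusted p = 0.00181).

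The alternative exon of this event matched no exon of Taf6l. It has 188 nucleotides (mm9 chromosome 19, 8847995 to 8848182, minus strand), and its length together with the 642 nucleotides of the intron before it matched exon 2 of 5 of Tmem179b. This gene encodes a transmembrane protein, and exon 2 is coding. Tmem179b begins 19 nucleotides after the end of Taf6l on the same strand. The first exon of the event, of 956 nucleotides, has the length from the start of the last exon of Taf6l to the end of the first exon of Tmem179b, so it spans both genes. The last exon of the event begins 398 nucleotides after the alternative one, which is the distance to exon 4 of Tmem179b, past the 135 nucleotides of exon 3. Only its start matched: it has 253 nucleotides against 79 for exon 4, and so runs on into the intron after exon 4. The table gives a second gene identifier for the event, which matched no entry of the gene name table. The isoform without the exon has the splice junction of an annotated Tmem179b transcript of 3 exons, with no coding sequence. The isoform with it joins exon 2 to exon 4, and no annotated transcript matched that join.

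By this match the difference lay in Tmem179b sequence. The table does not separate reads of a transcript that runs on from Taf6l from those of Tmem179b itself. No listed event tests the splicing of Taf6l coding exons. Of the reads over the event, 146 of 302 in the KO library and 151 of 307 in the WT library fitted neither isoform, 48.3% and 49.2%. Since 188 is not a multiple of 3, this exon alone would shift the reading frame. Its junction with exon 1 and the skipping junction are printed from GENCODE M21, with exon 2 in capitals.
Tmem179b exon 1 to exon 2: ctgacccggacccagGGCTCCTTTGGTGGT
Tmem179b exon 1 to exon 4: ctgacccggacccagctgctctgaagccca

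**Figure D2:**
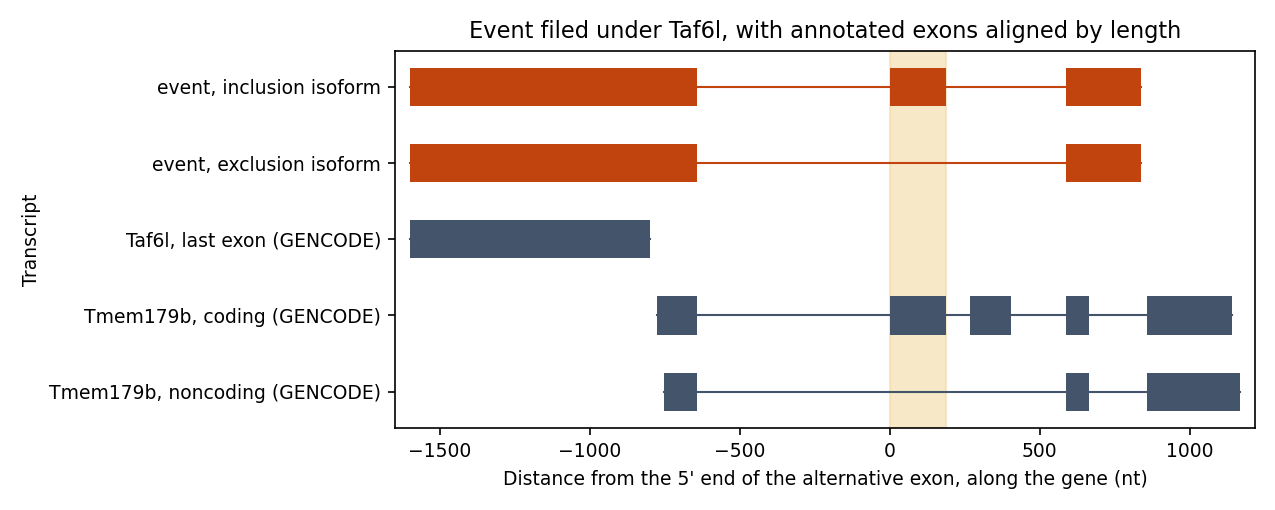
Exons (boxes) and introns (lines) of the event filed under Taf6l and of GENCODE transcripts, by distance in nucleotides from the 5′ end of the alternative exon (x axis). The shaded alternative exon of 188 nucleotides coincides with exon 2 of Tmem179b, and the first exon of the event runs from the last exon of Taf6l to the end of exon 1 of Tmem179b. The last exon of the event starts with exon 4 of Tmem179b and runs past its end.

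Arid1a encodes the large DNA-binding subunit of SWI/SNF remodelling complexes of the BAF type, which move nucleosomes with energy from ATP. Its event is a pair of 5′ splice sites, and use of the one that makes the longer exon was 50% in KO cells (37% to 63%) against 27% in WT cells (18% to 36%). The KO library had 31 reads for the longer exon alone and 24 for the shorter one alone, against 22 and 47 in the WT library. Reads for the longer form outnumbered those for the shorter one in the KO library, within counting error, and were the fewer in the WT library. Its share was 56.4% in KO cells (42.3% to 69.7%) and 31.9% in WT cells (21.2% to 44.2%), a difference of 24.5 points (Fisher's exact test, adjusted p = 0.0152). Dividing the longer-exon reads by 2 raised the adjusted p of the same exact test to 0.0545 and ended the call, as did a minimum difference of 30 points.

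The longer exon adds 15 nucleotides (mm9 chromosome 4, 133242319 to 133242333, minus strand), or 5 codons, to exon 16 of 20 in 2 annotated transcripts, and another with the shorter exon is annotated as well. The longest form with the added bases has 2287 codons and the one without them 2283, a difference of 4 and not 5, so these forms also differ elsewhere. The end of the exon is shown because the added bases resemble those before them, being equal at 12 of 15 positions. The added bases are in capitals, and the sequences come from GENCODE M21 transcripts.
Arid1a end of the longer exon: gcaacagcagcaacaGCAGCAACAGCAACG
Arid1a longer exon to next: GCAGCAACAGCAACGacatgattcctatgg
Arid1a shorter exon to next: gcaacagcagcaacaacatgattcctatgg

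Adnp encodes a homeodomain and zinc finger protein that forms the ChAHP complex with the remodeller CHD4 and heterochromatin protein HP1. Inclusion of its cassette exon was 79% in KO cells (63% to 91%) against 32% in WT cells (21% to 43%). Both libraries had 28 reads for inclusion alone, and reads for exclusion alone numbered 5 in the KO library against 33 in the WT library. Among single-isoform reads the libraries thus differed in those that skip the exon rather than in those that contain it. The inclusion share of these reads was 84.8% in KO cells (68.1% to 94.9%) and 45.9% in WT cells (33.1% to 59.2%). The difference was 38.9 points (Fisher's exact test, adjusted p = 0.00136). Once reads that fit both isoforms were divided, the authors assigned 28 reads to inclusion and 5 to exclusion in the KO library. In the WT library they assigned 49 to inclusion and 74 to exclusion.

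The Adnp exon is 175 nucleotides long (mm9 chromosome 2, 168030100 to 168030274, minus strand). It is exon 2 of 5 in one annotated transcript and is absent from another, and both encode the same 1108 codons from the same first base. It is therefore a leader exon, as in Nsd2, but with the opposite direction of change. The table also assigns this event to Dpm1, whose 10 annotated transcripts have no exon that overlaps exon 1 of the Adnp transcript that skips the exon. The first exon of the event itself, of 539 nucleotides, was not placed, so whether it covers Dpm1 sequence was not tested. Reads that fitted neither isoform made up 92.6% of the reads over the event in the KO library and 81.1% in the WT library. Reads that fitted both isoforms numbered 0 of 33 fitting reads in the KO library, where a floor set at 3 reads would be a share of 9.09%. In the WT library they numbered 62 of 123, or 50.4%.

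Hmgxb4 encodes a protein with an HMG box, a DNA-bending domain found in many chromatin proteins. Inclusion of its cassette exon was 41% in KO cells (26% to 57%) against 71% in WT cells (56% to 84%). The reads for inclusion alone were 16 and those for exclusion alone 15 in the KO library, against 27 and 7 in the WT library. Both forms were about equally frequent among these reads in KO cells, and inclusion was the more frequent in WT cells. The inclusion share was 51.6% in KO cells (33.1% to 69.8%) and 79.4% in WT cells (62.1% to 91.3%), a difference of -27.8 points (Fisher's exact test, adjusted p = 0.0276). Dividing inclusion reads by 2 ended the call (Fisher's exact test, adjusted p = 0.0852).

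The exon of Hmgxb4 has 115 nucleotides (mm9 chromosome 8, 77523898 to 77524012, plus strand) and matched exon 5 of 12 of a transcript that GENCODE annotates for nonsense-mediated decay. Transcripts with a stop codon well before the last exon junction are commonly degraded by that pathway. The reading frame enters the exon for 17 nucleotides and meets a stop codon there, with 7 exon junctions after the exon. The transcript with the exon encodes 92 codons, and the full-length one without it 594. Inclusion of the exon with the early stop was thus lower in KO cells. The sequence runs from the last 10 bases of the exon before, through the 17 coding bases, to the stop codon in capitals, and the skipping junction follows.
Hmgxb4 into the exon: tactatggaggacagtggttcttgttcTGA
Hmgxb4 skipping the exon: attactactatggagacatttcgactttgg

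**Figure D3:**
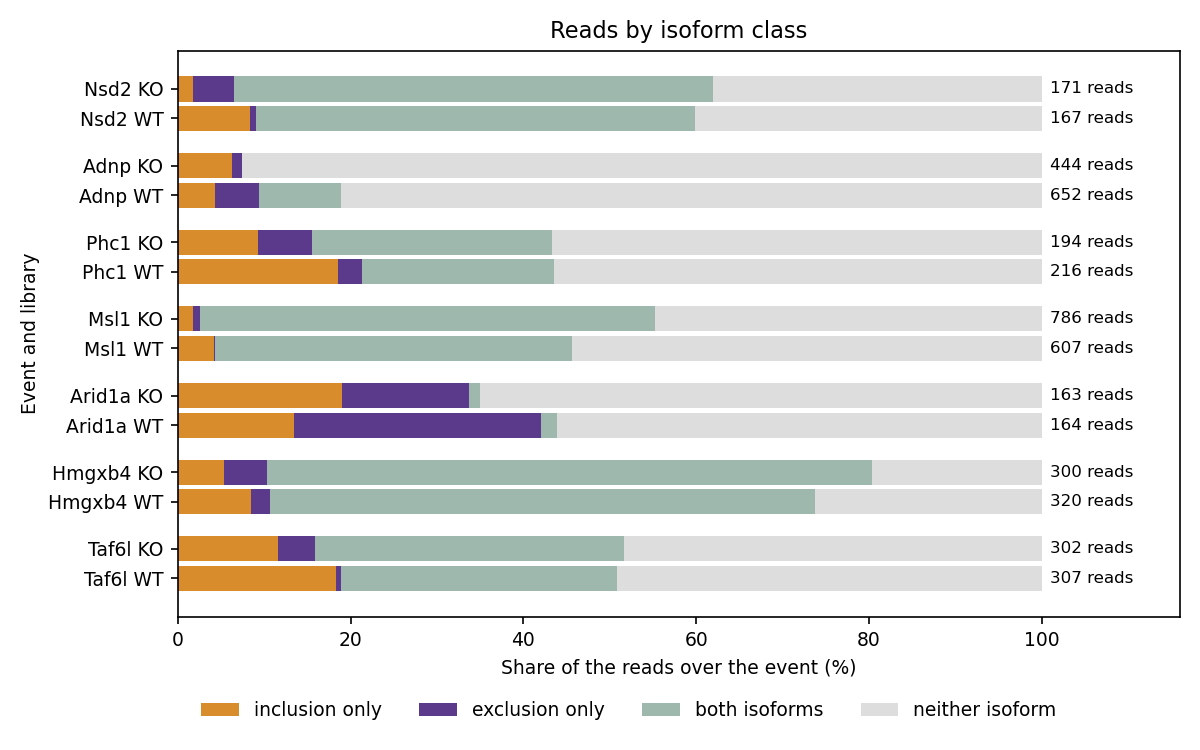
Share in percent (x axis) of the reads over each event that fit inclusion only, exclusion only, both isoforms or neither, for the KO library above the WT library of each gene, with read totals at the right. Single-isoform reads are a small share in Msl1 (20 of 786 reads in KO and 26 of 607 in WT). Reads for both isoforms are absent from the KO library in Adnp.

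Most of the reads that entered the deposited estimates fitted both isoforms in 5 of the 7 events, and the authors' table divides these reads between the isoforms. The share of fitting reads that fitted both was 95.4% in KO and 90.6% in WT cells for Msl1, and 89.6% in KO and 85.0% in WT cells for Nsd2. It was 87.1% in KO and 85.6% in WT cells for Hmgxb4 and 69.2% in KO and 62.8% in WT cells for Taf6l. In Phc1 it was 64.3% in KO and 51.1% in WT cells. Arid1a had 3.51% in KO and 4.17% in WT cells, and Adnp, as given above, had none in KO and 50.4% in WT cells. Over all events the median share was 41.0% in KO and 46.0% in WT cells. In Msl1 the authors assigned 48 of 414 such reads to inclusion in KO cells, or 11.6%, and 117 of 251 in WT cells, or 46.6%. In Nsd2 they assigned 17 of 95 in KO cells, or 17.9%, and 73 of 85 in WT cells, or 85.9%.

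The deposited inclusion and the share of single-isoform reads differed in level. In Msl1 they were 17% and 70.0% in KO cells, and 52% and 96.2% in WT cells. The share takes no account of how long the alternative part is or how many junctions it has. It also leaves out the reads that fit both isoforms. The cause of the difference in level was not tested. The differences between the libraries had the same direction by both measures in all 7 genes, with a median gap of 8.04 points between them, against 7.41 points over all events.

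**Figure D4:**
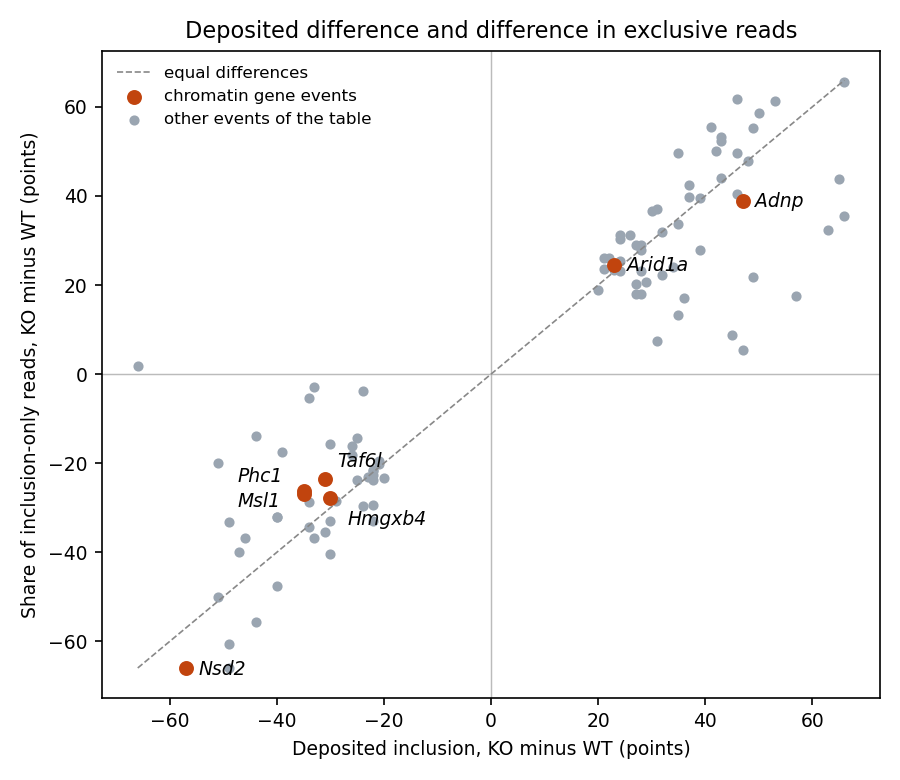
Difference between the libraries (KO minus WT, in points) in the deposited inclusion (x axis) and in the share of inclusion-only reads (y axis), with 1 point per listed event and the 7 chromatin gene events in red. Arid1a lies close to the line of equal differences (23 and 24.5 points), Nsd2 beyond it (-57 and -66.1) and the other members nearer to 0 on the y axis.

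Each event has a Bayes factor for a difference in the authors' deposited table, and the events were ranked by it here. By that factor Adnp, at 3.02e+10, and Nsd2, at 13763.43, led the 7 genes, ranking 17 and 24 of the 100 events. The authors' deposited table gives 85.12 for Msl1, 64.36 for Phc1, 39.5 for Taf6l and 14.91 for Arid1a, beside a median of 44.7 over all events. Hmgxb4, at 6.84 in the authors' deposited table, ranked 98 and is the one gene of the 7 whose intervals overlapped. By size of the difference, Nsd2 ranked 6 and Arid1a, with 23 points, ranked 84, so Arid1a lay close to the 20 points that bound the table.

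Reads that fitted an event were also compared between the libraries as a rough measure of how much RNA covered it, after scaling by the median ratio over genes. In bulk RNA, fewer cells of a type and less RNA per cell cannot be told apart. The ratio of KO to WT cells was 0.292 for Adnp (exact 95% interval 0.192 to 0.432) and 1.70 for Msl1 (1.46 to 1.99). Only Adnp among the 7 lay wholly past a limit of 1.5 times in either direction, beside 14.0% of all events. Its ratio was 0.599 with single-isoform reads and 0.728 with all 4 classes, and neither interval lay wholly past the limit. For Msl1 the ratio was 0.851 with single-isoform reads and 1.38 with all classes. The other 5 genes lay between 0.861 for Arid1a and 1.15 for Nsd2. With single-isoform reads the ratio of Nsd2 was 0.812 and that of Taf6l 0.916, against 1.09 for Taf6l with all fitting reads. With all classes that of Arid1a was 1.06. The side of 1 on which Msl1, Nsd2, Taf6l and Arid1a lay therefore depended on the reads counted. A level of the whole transcript was not analysed here.

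The alternative parts shared few sequence features. Each ended in G in the transcript, a frequent last base of exons, and their GC content ran from 46.1% in Hmgxb4 to 60.0% in Arid1a. SRSF10 is known to bind purine-rich RNA, so the letters GAGA were sought on the transcript strand, counting overlaps. They occurred 2 times in the Hmgxb4 exon and once each in those of Msl1 and Adnp. They did not occur in the exons of Nsd2, Phc1 and Tmem179b or in the 15 bases of Arid1a. Of annotated internal exons of coding transcripts within 5% of the same length, 52.2% held GAGA at the length of the Hmgxb4 exon, 29.2% at that of Msl1 and 66.4% at that of Adnp. The shares were 39.0% at the length of the Nsd2 exon, 63.2% at that of Phc1 and 69.4% at that of Tmem179b. A match of these letters does not show a binding site.

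Lists of 299 genes for chromatin complexes and histone marks held 11 listed events, 7 of them the genes above. Of the 11 events, 7 were lower in KO cells and 4 higher, with a median difference of -30.0 points, and 10 were called by Fisher's exact test, beside the 86.0% of all events. The list of 44 Polycomb genes held Phc1 and E2f6, a repressor of the variant complexes, both lower. E2f6 stood at 48% in KO and 95% in WT cells on 10 and 29 single-isoform reads. The list of 40 genes for MYST acetyltransferase complexes held Msl1 and Ep400, both lower. Ep400, the ATPase of the TIP60 complex, was included at 71% in KO cells (60% to 80%) against 93% in WT cells (85% to 98%), on 55 of 75 against 73 of 77 single-isoform reads (Fisher's exact test, adjusted p = 0.00129).

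Among 60 genes for histone lysine methyltransferases and demethylases, Nsd2 was lower and Mecom higher. Mecom, a zinc finger gene, stood at 72% in KO and 37% in WT cells. The 40 genes for other remodellers held Adnp and Hmgxb4, which went opposite ways. The 41 genes for SAGA, ATAC and TFIID held Taf6l alone, through the exon that matched Tmem179b, and the 30 SWI/SNF genes held Arid1a alone. The 44 genes for acetyltransferases, deacetylases and readers held Emsy, at 91% in KO cells (75% to 99%) and 60% in WT cells (45% to 75%). Its single-isoform reads were 55 of 55 for inclusion in KO and 50 of 54 in WT cells, and it was not called (Fisher's exact test, adjusted p = 0.0632).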

How the data were processed

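Poly(A)-selected RNA of mouse embryonic fibroblasts was sequenced as paired ends, per the labels' protocols, with 1 library per genotype. TopHat and mm9 are named in the submitters' processing notes, and the program behind the inclusion values is not given in those sources. Per the file headers, the deposited inclusion is a fraction with 2 bounds, of a level not stated, written here as a percentage, and the authors' Bayes factor is a ratio. The authors' difference is a signed score, deposited as wild-type minus deficient and turned round here. Deposited read counts are text cells by isoform class. A spreadsheet had turned 9 of the cells of assigned reads into times, none of them in the genes described.

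For each of the 100 events, reads that fit a single isoform were set against each other, KO and WT, in Fisher's exact test (two-sided, SciPy 1.17.1) with Benjamini-Hochberg adjustment. The step was run on simulated reads as well. These modelled neither the selection of events nor variation between libraries, so they lend the calls no support. A call needed an adjusted p under 0.05, an inclusion difference of 10 points or more and one direction in both measures. The test compares 2 libraries, not genotypes, and intervals cover counting error only. Exons were placed in GENCODE M21 (GRCm38) by their lengths and those of the neighbouring introns, without converting coordinates. The genes, gene lists and tests were chosen with earlier results of these data known. The 7 genes were all named, whatever their values, with each listed event in a gene of 7 chromatin lists. Reads over each event were scaled by the median ratio over genes, 0.919.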

Additional observations from a re-analysis of the deposited data

How the results depend on the processing

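With inclusion reads divided by 2, 4 of the 7 events were called, beside 69 of all 100 events. Msl1, Hmgxb4 and Arid1a (adjusted p = 0.0545, Fisher's exact test) were lost, although Arid1a has a single junction for each isoform. Bonferroni adjustment left 1 of the 7, Adnp, and 28 of all 100 events, against 86. A Bayes factor of at least 100 was met by 2 of the 7 and 37 of all events. A minimum difference of 30 points left 51 of all events and cost the Arid1a call. With at least 20 single-isoform reads per library Nsd2 was not tested and the other 6 were called, beside 63 of the 68 events tested. Counting events with identical reads once, an alternative chosen after seeing the data, changed no call among the 7. Of the 7 genes, 0 had a read ratio whose whole interval lay past 1.5 times, either with single-isoform reads or with all 4 classes, against 1. Over all events the counts were 11 with single-isoform reads and 10 with all 4 classes, against 14. The cause of these changes was not tested. No paired analysis was possible because each genotype has 1 library, and for the same reason no library could be left out. Depth limits Nsd2 most, at 11 and 15 single-isoform reads.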

Other observations

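Reads that fitted both isoforms were missing from 1 library alone in 2 of the 100 events, Adnp and Axin1, taking events with 0 such reads in the KO library and at least 20 in the WT library. No event had 0 in the WT library and at least 20 in the KO library. These events were picked out after their values were seen.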
